A study of Mus musculus with 30 samples.

Results

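Solute carriers are membrane proteins, encoded by the Slc genes, that move nutrients, ions and metabolites across the plasma membrane and the membranes of organelles. The transcripts examined here are those of 156 genes whose mouse symbol is Slc followed by a digit (Slc17a5 left out) and that had at least 1 called N6-methyladenosine (m6A) bin in a wild-type list. In all, 13765 genes had a called bin somewhere in the 15 lists, and these are 156 of them. Of the 378 Slc symbols in the name table, 196 had a bin in some list, 40 of them only outside the wild-type lists, and 182 had none. Of the 156 members, 103 were called in all 3 wild-type lists, 27 in 2 and 26 in 1. Because the wild-type lists chose the members, every wild-type value below is a description and was not tested.

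The study compared m6A in 5 lines of mouse embryonic stem cells of the C57BL/6 strain. WT cells carry an intact Mettl14 gene and KO cells lack METTL14. The KO+WT, KO+5RK and KO+13RK lines are the knockout carrying wild-type METTL14 or a form named 5RK or 13RK, and the series title concerns arginine methylation of the disordered C-terminus of METTL14. All 5 lines grew in serum with leukemia inhibitory factor on gelatin. What drives the returned proteins, how strongly they are made and how many clones each line represents are not given in the sources used here. Each line gave 3 immunoprecipitated and 3 input libraries, 30 in all, and 15 peak lists were analysed, 1 for each immunoprecipitated library. The labels do not say that replicates came from separate cultures, so p-values measure the spread between these libraries.

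METTL14 is the RNA-binding partner of the methyltransferase METTL3, and the complex of both places m6A on messenger RNA, chiefly around stop codons and in 3′ untranslated regions. Antibodies against m6A also bind a related nucleotide beside the cap, m6Am, which another enzyme makes, and its part in these lists was not tested. In stem cells, glucose, glutamine, leucine and arginine carriers feed glycolysis, nucleotide synthesis and growth signalling, while zinc and phosphate carriers and mitochondrial exchangers keep ion and metabolite pools in balance.

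A list entry is a 100 nt bin within a gene that the authors called enriched, and the number of bins per gene or list is the quantity compared. A list held from 6328 to 23164 bins. A missing call is not the absence of m6A, since a call also needs enough transcript, and transcript levels were not analysed here. In such bulk samples fewer cells with a transcript and less transcript per cell cannot be told apart. Of 10 embryonic stem cell markers, all had a bin in some list and 2, Esrrb and Tfcp2l1, had one in all 15. Tbx3 had none in any KO list.

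The Slc transcripts carried far fewer m6A bins without METTL14, and about midway between KO and WT when the wild-type protein was returned. The 3 WT lists held 372, 351 and 341 member bins. The KO lists held 82, 111 and 137. The KO+WT lists held 228, 257 and 216. Every KO list was below every list of the other lines, and no KO+WT list reached the WT range.

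Both mutant lines lay between KO and KO+WT or close to the latter. KO+5RK had 231, 208 and 197 member bins and KO+13RK had 172, 161 and 187. The KO+5RK lists overlapped the KO+WT lists, whereas all KO+13RK lists were below them. Relative to the KO+WT mean of 234 ± 21.1 bins (SD, n = 3), KO stood at 47.1%, WT at 152%, KO+5RK at 90.7% and KO+13RK at 74.2%. The 13569 genes that are not Slc genes stood at 51.2%, 149%, 80.7% and 66.3% in the same order. Those of them with a WT bin, as the members all have (10134 genes), stood at 48.6%, 156%, 80.0% and 65.2%.

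Member bins made up between 1.30% and 1.78% of each list. In WT they made up 1.56 ± 0.0377% of the bins and in KO 1.40 ± 0.166% (SD, n = 3). KO+WT had 1.54 ± 0.0544%, and the mutants had 1.73 ± 0.0765% (KO+5RK) and 1.72 ± 0.0441% (KO+13RK). The third KO list, at 1.59%, was the highest of its line and lay inside the KO+WT range of 1.5% to 1.60%. All lists of both mutants were above that range. This share carries no test, because the members were chosen with earlier results known. With all lists cut to the same length, the KO mean rose to 85.9% of KO+WT, KO+13RK to 112% and KO+5RK to 115%. Cutting fixes every list at 6328 bins, so these values compare shares and not numbers of bins. Most of the gap in member bins between KO and KO+WT was thus absent, which does not decide what the gap at full length reflects.

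**Figure D1:**
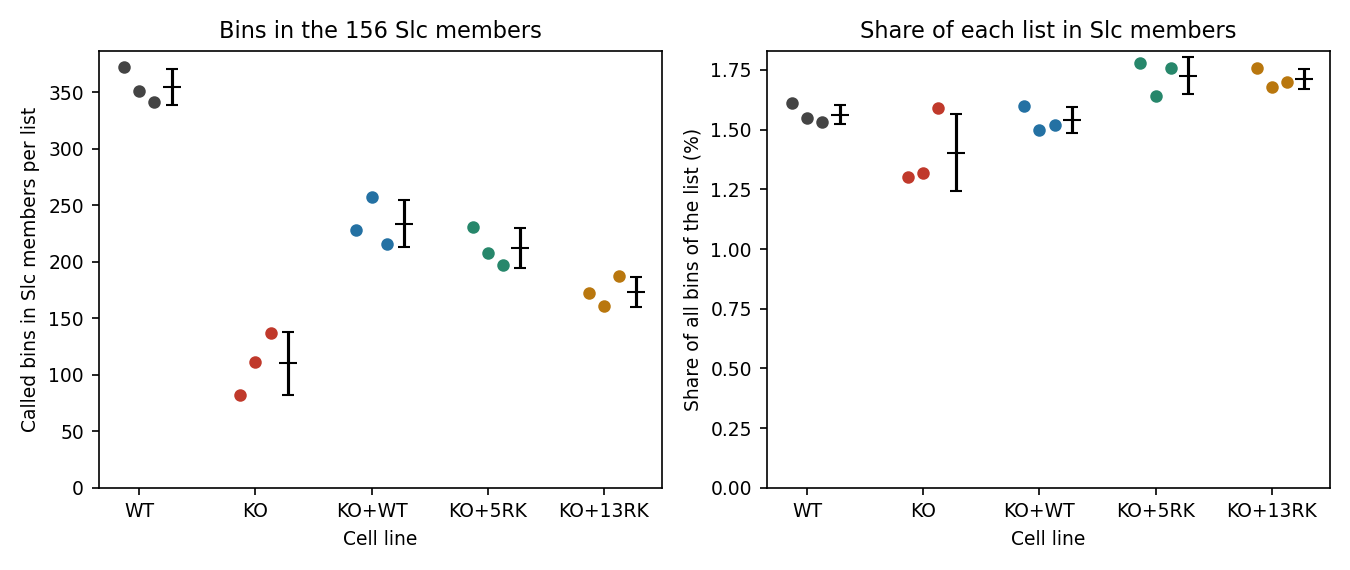
Called bins in the 156 Slc members per list (left) and their share of all bins of that list in percent (right), for each cell line on the horizontal axis; points are lists, and the black mark and bar are the mean and SD of 3 lists. The KO lists sit at 82 to 137 bins, below all other lines, while the share stays between 1.30% and 1.78% in all 15 lists.

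Other membrane transporters also had fewer bins in KO than in KO+WT. The 23 ABC transporters with a WT bin, pumps that use ATP to export lipids and drugs, had 11.7 ± 5.86 bins per KO list against 24.7 ± 5.51 per KO+WT list, which is 47.3%, with KO+5RK at 78.4% and KO+13RK at 85.1%. The 18 P-type ATPases with a WT bin, which pump cations or flip lipids, stood at 52.9% in KO, 77.1% in KO+5RK and 65.7% in KO+13RK. Neither value was tested against the Slc members.

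Fewer Slc genes carried a bin at all in KO. On average a WT list called 130 members and a KO list 50.7. The mean was 96.7 for KO+WT, 91.0 for KO+5RK and 81.7 for KO+13RK. Without METTL14, 79 members had no bin in any list and 77 had one in at least 1 list. All 3 KO lists called 26 of the 156 members, beside 1803 of the 10134 other genes with a WT bin. The members with a bin in a list averaged 83.1% in WT and 32.5% in KO, beside 76.1% and 36.5% of the other genes with a WT bin. All 15 lists called 16 of the members, and 12 were called in no list outside WT. For these counts, and for the 79 and 77, no share over other genes is given. They describe the members alone.

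The place of the bins along the gene also differed. Distances were measured from the middle of a bin to the start and end of each gene's RefSeq span. This span is longer than a single transcript in some genes. In KO, 19.5%, 17.1% and 17.5% of placed member bins lay within 500 nt of the gene start, against 4.39%, 7.0% and 3.70% in KO+WT. The mean was 4.32% in WT, and the mutants had 4.19% (KO+5RK) and 5.61% (KO+13RK). The KO lists did not overlap those of any other line.

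Bins near the gene end moved the other way. Within 2000 nt of the end lay 11.0%, 9.91% and 19.0% of member bins in KO, against 38.6%, 31.5% and 41.2% in KO+WT, with means of 41.5% in WT and, for the mutants, 38.0% (KO+5RK) and 34.0% (KO+13RK). In numbers, the KO lists held 9, 11 and 26 such bins and the KO+WT lists 88, 81 and 89. Near the start the same lists held 16, 19 and 24 in KO and 10, 18 and 8 in KO+WT. The numbers near the start overlapped between both lines, while those near the end were far fewer in KO. Other genes with a WT bin had 16.6% of bins near the start and 15.3% near the end in KO, and 5.16% and 30.7% in KO+WT, and thus shifted in the same direction.

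**Figure D2:**
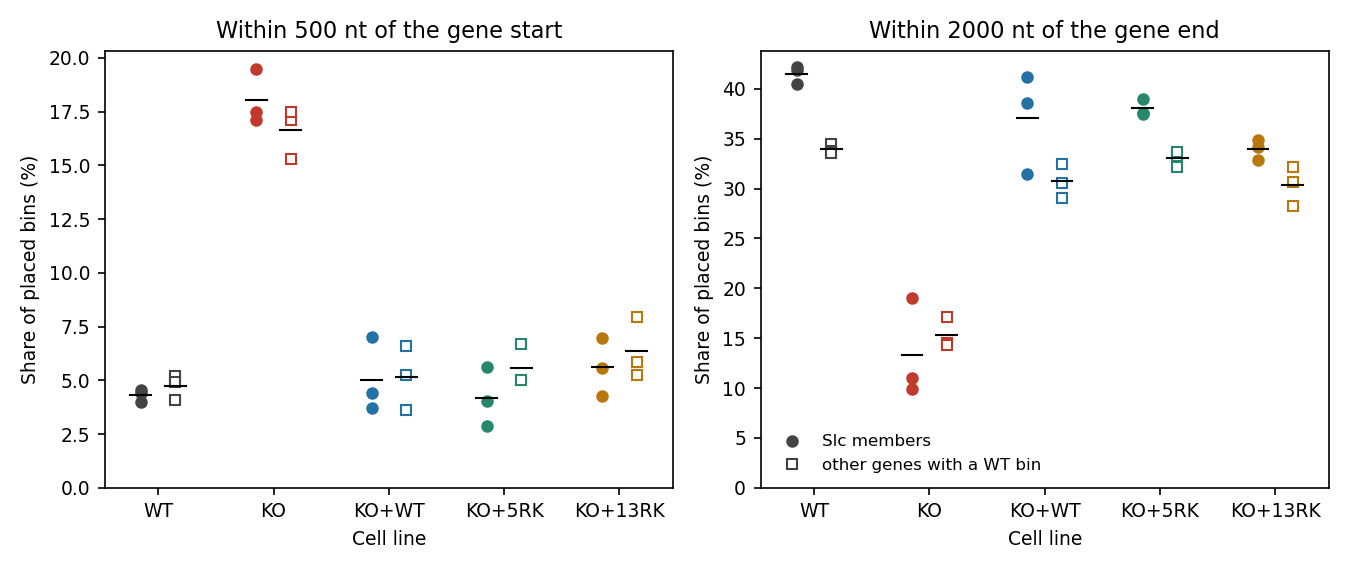
Share of placed bins in percent within 500 nt of the gene start (left) and within 2000 nt of the gene end (right) for each cell line; filled circles are Slc members, open squares other genes with a WT bin, each symbol is a list and the black line the mean of 3. In KO the members are at 17.1% to 19.5% near the start and 9.91% to 19.0% near the end, while the members in every other line are at or below 7.0% near the start.

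RefSeq windows around transcription starts (assembly GRCm38.p6) were matched by symbol to 119 of the 156 members. In 10 members, 11 windows had a bin in at least 2 KO lists that overlapped the first 50 transcribed bases or lay within 100 nt of them. The 4 with a bin in all 3 KO lists are shown. In Slc7a6os the KO lists did not all call the same bin, as the bin from 106210818 was called in 1 KO list. Slc7a5 and Slc6a8, for example, also had a bin near the gene start in all 3 KO lists but are not among these windows. Each line gives 30 bases before the annotated start and 20 from it, 5′ to 3′ on the gene's strand, with the first transcribed base in capitals.
Slc16a1, chr3:104638634-104638683, plus strand: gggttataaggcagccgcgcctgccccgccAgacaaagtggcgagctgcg
Slc2a1, chr4:119108715-119108764, plus strand: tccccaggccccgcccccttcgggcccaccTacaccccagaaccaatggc
Slc3a2, chr19:8713878-8713927, minus strand: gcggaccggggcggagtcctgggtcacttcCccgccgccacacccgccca
Slc7a6os, chr8:106210914-106210963, minus strand: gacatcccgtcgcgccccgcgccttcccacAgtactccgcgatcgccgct
The annotated first base is A in Slc16a1 and Slc7a6os, T in Slc2a1 and C in Slc3a2. Over the 11 windows 4 begin with A, beside 34.4% of the 32851 windows in the whole table, so the share is near the background. Cells can start transcription beside the annotated base, and the files do not show where they did.

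The 4 genes differed in how their start bins behaved in the other lines. The start of Slc16a1, which carries lactate and pyruvate, was also called in 2 WT lists, 1 KO+WT list and 2 lists of each mutant. Slc2a1, the widely expressed glucose carrier GLUT1, had its start called in no WT, 1 KO+WT, 1 KO+5RK and no KO+13RK list. The start of Slc3a2, the heavy chain that brings amino acid carriers to the surface, was called in all 15 lists. This Slc3a2 start lies inside the RefSeq span, 9637 nt from its outer start for the bin from 8713683, so the shares above do not count its bins as near the start. The start of Slc7a6os, named for its place opposite Slc7a6 and not a carrier, was called in 1 KO+5RK and 1 KO+13RK list and in no WT or KO+WT list.

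Regions were then compared between the 3 KO lists and the 9 lists of the rescue lines. A region is a bin, or overlapping bins merged, and 286 of the 880 member regions were called in at least 3 of these 12 lists and tested. None passed Fisher's exact test (two-sided, adjusted over 16558 regions), beside 0% of all regions in either direction. The smallest p that 3 against 9 lists can give is 0.00455, which became 0.0504 after adjustment. At an unadjusted p under 0.05 there were 84 member regions, 67 with fewer KO calls and 17 with more, among 3666 of all regions. With regions called in at least 6 of the 12 lists, which tests fewer, 32 of 126 member regions passed, at an adjusted p of 0.0272 (Fisher's exact test). That filter can be met by a KO-rich region only with at least 3 rescue lists as well, so the direction of these 32, fewer calls in KO, was fixed by it.

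Those 32 regions were called in all 9 rescue lists and in no KO list. They lie in 21 members and are 11.2% of the tested member regions, beside 7.06% of all regions. All regions include those of genes without a WT bin, whereas every member has one. The shares of regions here and below are thus not matched, and their difference was not tested. All 32 were also called in every WT list. Of them, 12 lay near the gene end and 1 near the start. One is listed under Slc22a14 but lies at bins of its neighbour Oxsr1.

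The reverse pattern, all 3 KO lists and no rescue list, held for 8 regions (2.80%, beside 1.95% of all regions) in 5 members. Of the 8, 3 lay near the gene start and 1 near the end, and none was called in a WT list. Over all genes, 28.3% of such regions lay near the start, against 0.374% of those called only with METTL14. A further 7 member regions (2.45%, beside 3.19%) were called in all 12 lists. They lie in Slc25a3, Slc5a3, Slc3a2, Slc17a9, Slc2a3, Slc25a5 and Slc6a8.

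Regions called only in KO and regions called in all rescue but no KO lists occurred together in 4 members. These were the glucose carriers Slc2a1 and Slc2a3 and the amino acid carriers Slc7a5 and Slc38a2. Genes with both kinds were not counted outside the members, so this describes these 4 genes and no trait of Slc genes. In Slc2a1 (GRCm38 chromosome 4, 119108745 to 119137330, plus strand), the bin at 119136812 to 119136911, 469 nt from the gene end, was called in all 9 rescue and all WT lists and in no KO list. Another 3 Slc2a1 bins were called in every KO list and in no other list. They begin at 119108912, with the middle of the bin 216 nt from the gene start, and at 119133212 and 119133312 inside the gene.

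Slc7a5 encodes the leucine carrier LAT1, the light chain that pairs with Slc3a2. In Slc7a5, 3 bins, beginning at 121882351, 121882451 and 121882651 on chromosome 8, were called in all rescue and WT lists and in no KO list. The bin beginning at 121907451, 186 nt from the gene start, and the bin beginning at 121882051, 954 nt from the end, were called in all KO lists and nowhere else. Each KO list had 3 Slc7a5 bins, against 4, 6 and 4 in KO+WT. The third, from 121907551, was also called in 1 KO+WT list, so no KO bin was shared with more than 1 list of another line. Some Slc7a5 and Slc2a1 bins overlap bins assigned to predicted genes on the opposite strand, Gm20388 and Gm12868.

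Slc38a2, the stress-responsive glutamine carrier SNAT2, had a bin 552 nt from its end (chromosome 15, from 96687895) in all rescue and WT lists and in no KO list. A bin called in KO lists alone lay 984 nt from its start, from 96698695 on. In Slc2a3, the neuronal-type glucose carrier GLUT3, bins from 122729710, 122729810 and 122729910 on chromosome 6 were called in all rescue and WT lists and in no KO list. Its next bin, from 122730010, was called in all 15 lists, and a bin from 122801310, 1004 nt from the start of the RefSeq span, in KO lists alone.

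**Figure D3:**
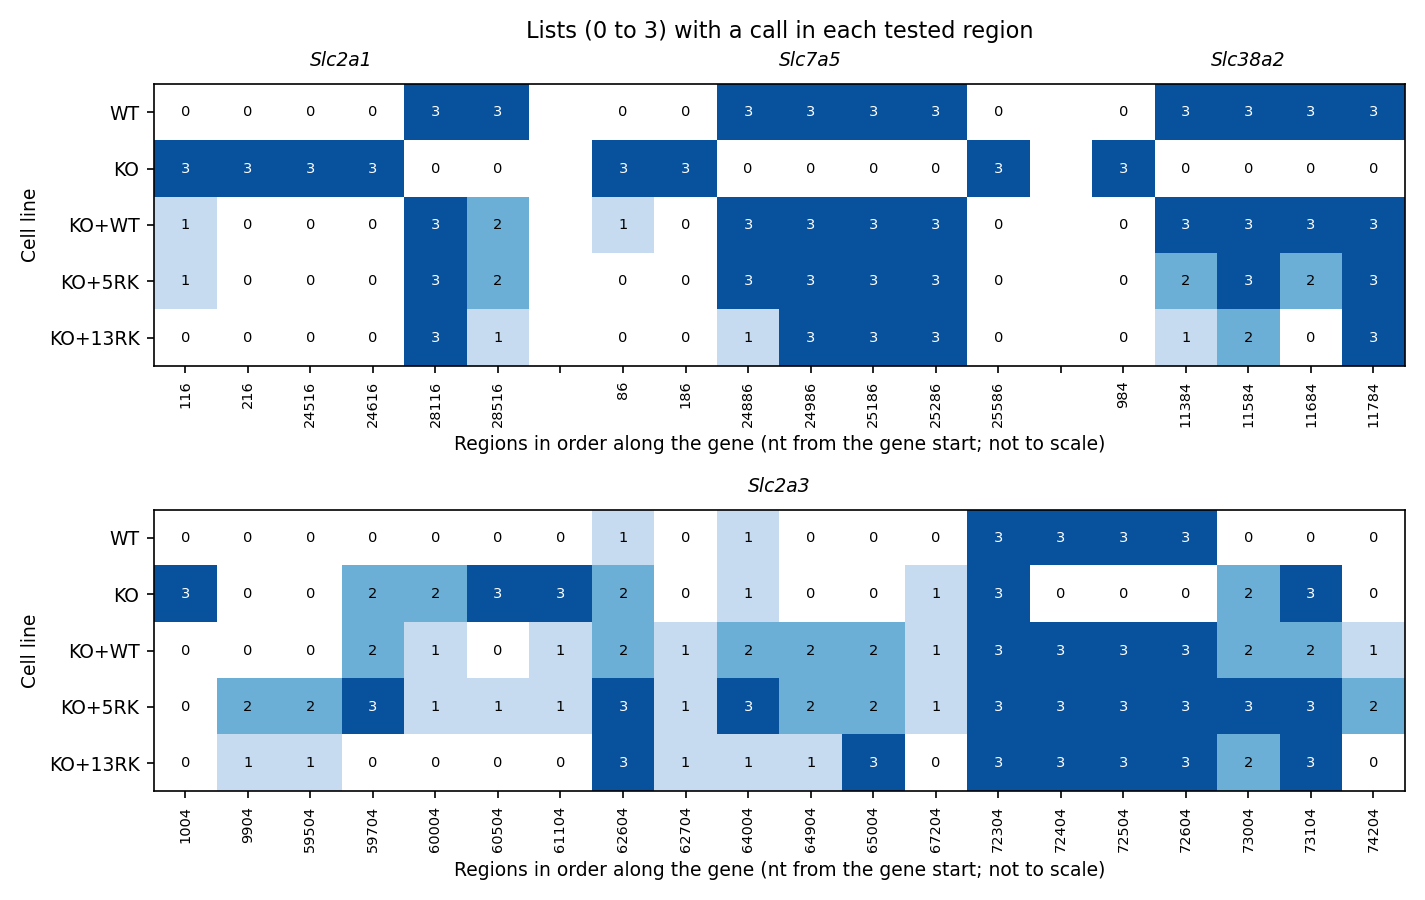
Number of lists, 0 to 3, in which each tested region of Slc2a1, Slc7a5, Slc38a2 (upper) and Slc2a3 (lower) was called, by cell line (rows); columns are regions in order along the gene, labelled with their distance in nt from the gene start and not drawn to scale. Columns with 3 in KO and 0 elsewhere stand beside columns with 0 in KO and 3 in the other lines, in each of the 4 genes.

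Bins per gene were compared between lines with limma on log2(bins + 1), over the 12 lists without WT and the 6384 genes with at least 6 bins in them. Of the members, 102 were tested and 54 fell under the filter, 10 of them at 5 bins, while 7 members were just inside it at 6. A difference below is on this log2 scale, which understates changes of genes with few bins. Adjusted p-values are limma's, by the Benjamini-Hochberg method over all 6384 genes, with a threshold of 0.05.

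Returning wild-type METTL14 to the knockout raised the bins of 25 of the 102 tested members (24.5%) and lowered none. Of all genes 22.7% rose and 1.02% fell, so the members' share is near the background. The median difference was 0.67 for the members and 0.67 for all genes. The 25 differences ran from 1.00 to 3.16, with adjusted p-values from 0.000106 to 0.0488. Of the 25, 18 had no bin in any KO list, and 17 had a bin in every list of both mutants. With lists of equal length, 13 of 74 tested members rose and 4 fell, beside 567 and 230 of 4013 genes, and the median of all genes moved to 0.14.

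Several of these calls did not hold when 1 list was left out. Slc25a32 passed in 5 of 18 alternative settings and was lost when any KO or KO+WT list, KO+5RK replicate 2 or 3, or KO+13RK replicate 2 was left out (adjusted p up to 0.158). Slc30a6 passed in 7 of 18 and was lost without any KO list, KO+WT replicate 1 or 3, KO+5RK replicate 2, or KO+13RK replicate 1 or 2 (up to 0.122). Slc45a4 passed in 8 of 16 and was lost without any KO or KO+WT list (up to 0.142). Slc25a32, Slc30a6 and Slc45a4 were also lost with no filter beyond 1 bin and in at least 1 setting that keeps fewer bins. Slc39a6 passed in 12 of 18, and was lost without KO replicate 1 or 3 or KO+WT replicate 2, with the stricter q, at equal length and with enrichment at or above the median (up to 0.698).

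A further 4 carriers of sugars and mitochondrial metabolites were lost in fewer settings. Slc2a8 did not pass at equal length (adjusted p = 0.473) or without KO or KO+WT replicate 1. Slc25a11 (14 of 18) was lost without KO replicate 2 or KO+WT replicate 3. It was also lost at equal length and with enrichment at or above the median (limma adjusted p up to 0.802). Slc25a13 (13 of 17) was lost without KO replicate 1 or KO+WT replicate 1 or 2, and with the stricter q. Slc25a15 (13 of 18) was lost without KO or KO+WT replicate 1. The stricter q, equal length and enrichment at or above the median also lost Slc25a15 (up to 0.622).

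**Figure D4:**
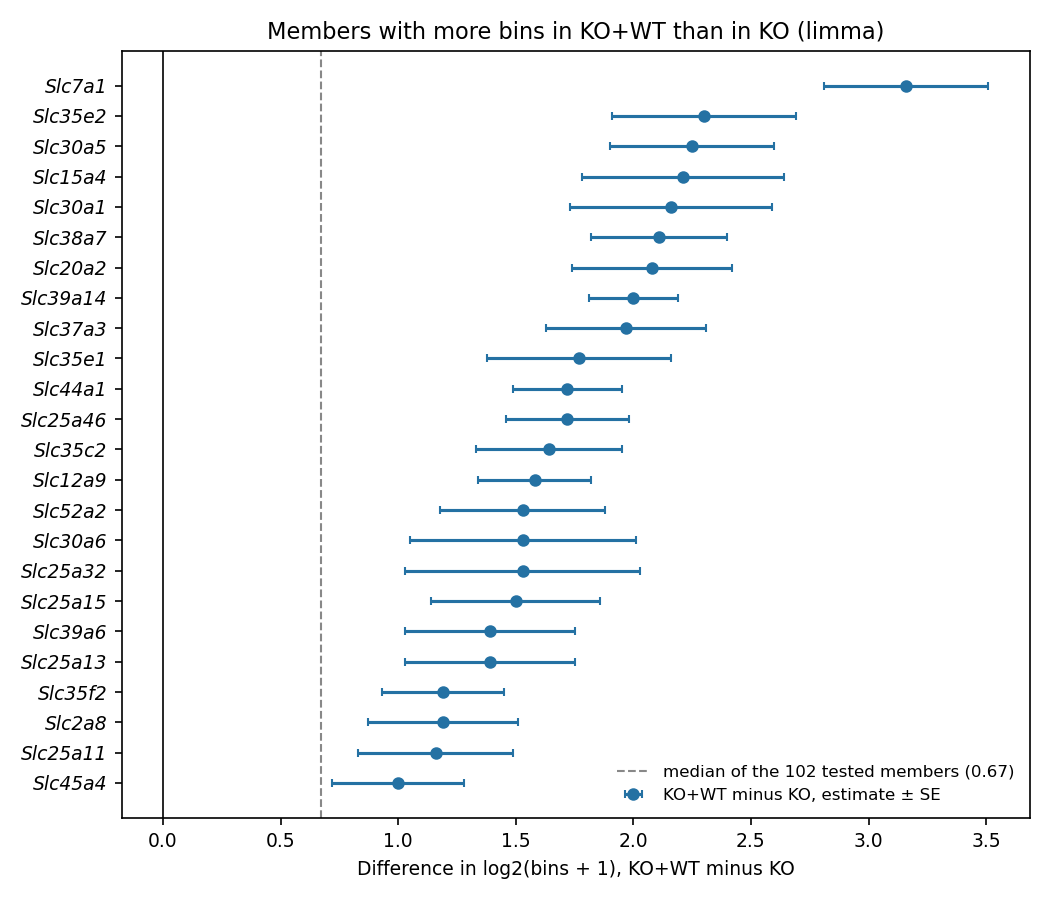
Difference in log2(bins + 1) between KO+WT and KO on the horizontal axis for members past the threshold (24 of the 25 are drawn); points are limma estimates, bars are SE, and the dashed line is the median of the 102 tested members, 0.67. Slc7a1 stands highest at 3.16 and Slc45a4 lowest at 1.00.

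Among carriers of amino acids and peptides, 3 of 21 tested members rose, beside 22.7% of all tested genes. Slc7a1, the arginine and lysine carrier CAT1, had no bin in any KO list and 7, 8 and 9 bins in KO+WT. It had 7, 9 and 5 in WT, 4, 5 and 3 in KO+5RK and 3, 1 and 5 in KO+13RK. The groups of KO and KO+WT lists were far apart, with both mutants between them, and the difference was 3.16 ± 0.35 (SE, limma adjusted p = 0.000238).

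The 7 tested Slc7a1 regions were adjacent, from 148331411 to 148332110 on chromosome 5, and their middles lay 4050 to 4650 nt inside the gene end. One of them, from 148331711, was called in all 9 rescue lists. Slc38a7, an amino acid carrier of the lysosome, had no KO bin, 3, 3 and 4 bins in KO+WT, 5, 3 and 4 in KO+5RK and 3, 1 and 3 in KO+13RK. Its difference was 2.11 ± 0.29 (adjusted p = 0.000789). Slc15a4, the lysosomal histidine and peptide carrier, had no KO bin and 3, 4 and 4 in KO+WT, with a difference of 2.21 ± 0.43 (adjusted p = 0.00482). All 3 genes passed under every alternative setting of the limma test.

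Some other amino acid carriers had numbers of bins in KO and KO+WT that met or overlapped, though not always at the same places. Not all were alike: Slc38a1 had no KO bin and 2, 5 and 0 in KO+WT. Its difference of 1.39 ± 0.61 did not pass (limma adjusted p = 0.128). Slc1a5, the glutamine carrier ASCT2, had 1, 3 and 4 bins in KO and 5, 4 and 4 in KO+WT. The ranges met at 4 bins, and the difference of 0.64 ± 0.30 did not pass (adjusted p = 0.157). Its bins from 16781841 and 16781941 on chromosome 7 and a bin 484 nt from its end were called in all rescue lists and in no KO list. Slc3a2 had 1, 3 and 3 bins in KO and 2, 3 and 2 in KO+WT. Slc6a8, the creatine carrier grouped here by family, had 2, 3 and 2 and then 2, 2 and 3, which is no difference beyond the spread of lists.

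A pair of amino acid carriers, Slc38a4 and Slc15a2, had more bins in KO, but neither passed the test. Slc38a4 had 3, 3 and 5 bins in KO and 2, 0 and 1 in KO+WT, groups that did not overlap. Its difference was -1.33 ± 0.44 (limma adjusted p = 0.0509). Slc15a2, a peptide carrier, had 1 bin in each KO list and none in KO+WT, a difference of -1.0 ± 0.35 (adjusted p = 0.0622). It was the single member of the 26 called in all KO lists that was called in no KO+WT list. This is 3.85%, beside 5.67% of all genes and 3.55% of the other genes with a WT bin. Conversely, 20 of the 60 members called in all KO+WT lists had no KO bin. This is 33.3%, beside 25.7% of all genes and 25.4% of the other genes with a WT bin.

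Zinc and other metal carriers had the lowest KO level relative to KO+WT. The 20 members together had 4, 7 and 6 bins in KO and 34, 36 and 26 in KO+WT, so that KO stood at 17.7% of KO+WT. The other carrier classes stood at 40.2% to 76.7%. Zinc and metal carriers were not tested against the others as a group. Of the 14 tested, 5 rose, beside 22.7% of all tested genes, and this count was not tested against that share.

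Slc39a14 encodes ZIP14, an importer of zinc, iron and manganese. It had no bin in any KO list and 3 in each KO+WT list, with 4, 3 and 3 in both KO+5RK and KO+13RK and 3, 3 and 4 in WT. The lists of every line with METTL14 were alike and apart from KO, with a difference of 2.00 ± 0.19 (limma adjusted p = 0.000106). In Slc39a14, 3 adjacent bins, from 70306370 to 70306669 on chromosome 14 and 2952 to 3152 nt from the gene end, were called in all 9 rescue and all WT lists and in no KO list.

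The zinc exporters of the Slc30 family varied more. Slc30a5, which loads zinc into the secretory pathway, had 0, 1 and 0 bins in KO and 5 in each KO+WT list. KO+5RK had 5, 4 and 3 and KO+13RK had 1, 3 and 1. The difference between KO+WT and KO was 2.25 ± 0.35 (adjusted p = 0.00153), and it was lost with the stricter q and with lists of equal length. Its 5 tested regions lay 254 to 654 nt from the gene end.

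Slc30a1, the zinc exporter of the plasma membrane, had 0, 0 and 1 bins in KO, 5, 5 and 4 in KO+WT, 0, 2 and 0 in KO+5RK and 2, 3 and 3 in KO+13RK. KO+WT stood above all the others, and WT itself had 3, 1 and 2. The difference from KO was 2.16 ± 0.43 (adjusted p = 0.00580), and it turned to -0.33 with lists of equal length. Slc30a6 (1.53) and the zinc importer Slc39a6 (1.39) were the other members of this class past the threshold.

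Mitochondrial carriers of the Slc25 family had 9, 14 and 21 bins in KO and 34, 37 and 31 in KO+WT, so that KO stood at 43.1%. Beside 22.7% of all tested genes, 5 of 17 tested members rose. They were Slc25a46 of the outer membrane (1.72), Slc25a32, which carries folate or a flavin (1.53), the ornithine carrier Slc25a15 (1.5), the aspartate-glutamate carrier Slc25a13 (1.39) and the oxoglutarate carrier Slc25a11 (1.16). Slc25a46 had no KO bin and 2, 2 and 3 in KO+WT.

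Other mitochondrial carriers had a bin in every KO list. Slc25a36, a pyrimidine nucleotide carrier, had 5, 6 and 8 bins in KO, 5, 6 and 3 in KO+WT and 8, 5 and 11 in WT, and many of these bins overlap bins of Gm16185 on the opposite strand. Slc25a5, the ADP/ATP exchanger ANT2, had 1, 2 and 2 in KO, 2, 2 and 3 in KO+WT and 5, 3 and 3 in KO+13RK. One of its bins, 204 nt from the gene start, was called in all 12 lists outside WT. Slc25a3, the mitochondrial phosphate carrier, had 1 bin in each KO list, 250 nt from the gene end, and 2 in each KO+WT list, and its difference of 0.58 ± 0.21 did not pass (adjusted p = 0.0658).

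Nucleoside and nucleotide sugar carriers stood at 40.2%, with 7, 15 and 19 bins in KO and 32, 35 and 35 in KO+WT. Of 13 tested members, 5 rose, beside 22.7% of all tested genes. All 5 were of the Slc35 family, which largely serves the Golgi, or of the Slc37 family, grouped here with it. Slc35e2 had no KO bin, 5, 4 and 3 in KO+WT, 2, 0 and 2 in KO+5RK and 3, 3 and 4 in KO+13RK, with a difference of 2.30 ± 0.39 (adjusted p = 0.00247). Many of its bins overlap bins of the predicted genes Gm16023 and Gm10563 on the opposite strand. Slc37a3 had 0, 1 and 0 bins in KO and 5, 3 and 4 in KO+WT (1.97 ± 0.34, adjusted p = 0.00302). Slc35e1 (1.77), Slc35c2 (1.64) and Slc35f2 (1.19) were the others.

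Slc29a1, the nucleoside carrier ENT1, held 4 of the 7, 8 of the 15 and 10 of the 19 KO bins of the class. Against these 4, 8 and 10 it had 2, 4 and 6 in KO+WT, 3, 4 and 4 in KO+5RK and 8, 1 and 5 in KO+13RK. The lists overlapped widely, and the difference of -0.75 ± 0.53 did not pass (adjusted p = 0.341). Its bin 250 nt from the gene end, from 45585401 on chromosome 17, was still called in all rescue and WT lists and in no KO list. With the stricter q of 0.005 the difference became 1.58 and passed in the other direction (limma adjusted p = 9.75e-05), and that of KO+13RK from KO+WT became -1.58 (adjusted p = 0.00183).

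**Figure D5:**
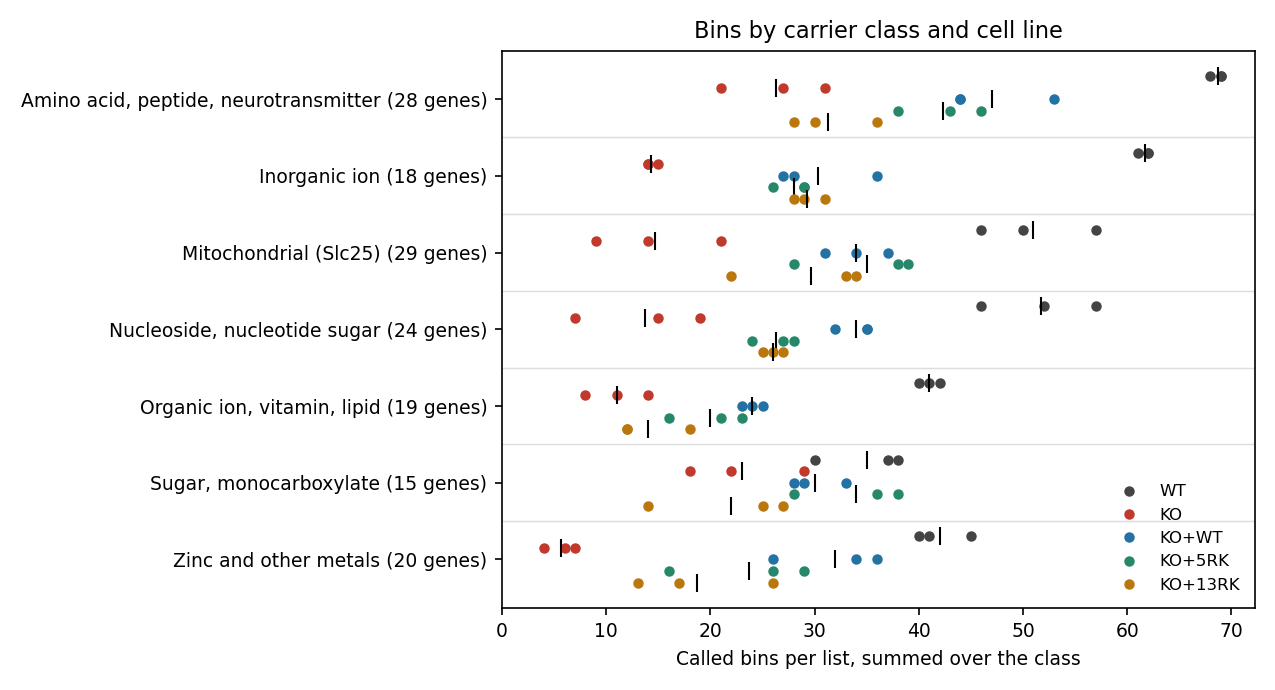
Called bins per list summed over each carrier class (rows, with the number of genes) for the 5 cell lines; points are lists and the black ticks are means of 3. KO lists of zinc and other metal carriers lie at 4 to 7 bins against 26 to 36 in KO+WT, whereas for sugar and monocarboxylate carriers KO, at 18 to 29, meets KO+WT, at 28 to 33.

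Carriers of sugars and monocarboxylates had the highest KO level relative to KO+WT, with 18, 22 and 29 bins in KO and 29, 33 and 28 in KO+WT, or 76.7%. The glucose carriers Slc2a1 and Slc2a3 together had 12, 15 and 20 in KO and 17, 12 and 14 in KO+WT. Without them, a split chosen after these values were seen, the class stood at 46.8%.

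Slc2a1 had 5 bins in each KO list and 2 in each KO+WT list, with 3, 1 and 2 in KO+5RK, 1, 1 and 4 in KO+13RK and 4, 3 and 4 in WT. KO was above all other lines without overlap, and the difference of -1.0 ± 0.36 did not pass (limma adjusted p = 0.0686). Slc2a3 had the highest total of the members over the 12 lists outside WT. It had 7, 10 and 15 in KO, 15, 10 and 12 in KO+WT, 22, 14 and 15 in KO+5RK and 7, 14 and 11 in KO+13RK, against 5, 4 and 7 in WT. Its KO and KO+WT lists overlapped (0.23 ± 0.31, adjusted p = 0.635).

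Slc16a1 had 4, 4 and 2 bins in KO and 3, 4 and 3 in KO+WT, a difference of 0.03 ± 0.32 that became -1.08 with lists of equal length, past the threshold (limma adjusted p = 0.0380). Slc16a3, the lactate exporter of glycolytic cells, was called in all KO+WT lists (1, 2 and 1 bins), in 2 KO lists and in no KO+13RK list. Slc2a8 (1.19), an intracellular sugar carrier, and Slc45a4 (1.00) rose. They are 2 of 10 tested members of the class, beside 22.7% of all tested genes. Slc5a3, the myo-inositol carrier, had 8, 9 and 6 bins in WT, 1 in each KO list and 1, 7 and 6 in KO+WT, but its bins overlap those of Mrps6 on the same strand and cannot be assigned to either gene.

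Inorganic ion carriers stood at 47.3%, with 14, 14 and 15 bins in KO and 27, 36 and 28 in KO+WT. Of 14 tested members, 3 rose, beside 22.7% of all tested genes. Slc20a2, a sodium-phosphate carrier, had no KO bin, 4, 4 and 2 in each of KO+WT and KO+5RK, 2, 5 and 5 in KO+13RK and 8, 7 and 8 in WT. Its difference was 2.08 ± 0.34 (adjusted p = 0.00207), and a few of its bins overlap Gm17491 on the same strand. Slc12a9 (1.58) also rose.

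Slc20a1, the other phosphate carrier of that family, had 4, 5 and 3 bins in KO and 5, 4 and 3 in KO+WT. Both groups spanned 3 to 5 bins. Many of its bins overlap bins of 9830144P21Rik on the opposite strand. Yet 2 adjacent Slc20a1 bins, from 129208265 to 129208464 on chromosome 2, were called in all rescue and WT lists and in no KO list. Slc12a7, a potassium-chloride carrier, had 3 bins in each KO list, 6, 6 and 4 in KO+WT and 7, 9 and 8 in WT.

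Organic ion, vitamin and lipid carriers stood at 45.8%, with 8, 11 and 14 bins in KO and 24, 25 and 23 in KO+WT. Of 12 tested members, 2 rose, beside 22.7% of all tested genes. Slc44a1, a choline carrier, had no KO bin, 3, 2 and 2 in KO+WT, 2 in each KO+5RK list and 2, 2 and 1 in KO+13RK (1.72 ± 0.23, adjusted p = 0.000625). The riboflavin carrier Slc52a2 (1.53) was the other. Slc44a2 had 6, 9 and 8 bins in WT and 4, 1 and 2 in KO+WT, so that even its highest KO+WT list was below WT. The 71 bins listed for Slc22a14 lie outside its RefSeq span, at bins of the neighbouring Oxsr1 on the same strand, and cannot be assigned to Slc22a14. They remain in the sums and counts above, as the deposited lists name the gene. Without them the class had 5, 8 and 10 bins in KO and 16, 17 and 20 in KO+WT (43.4%), and all members stood at 46.9% in KO.

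The rescue with wild-type METTL14 did not restore every Slc call seen in WT. Of the 103 members found in every WT list, 6 had no bin in any KO+WT list, 5.83% beside 5.84% of all genes. They were Slc15a1, Slc1a4, Slc25a42, Slc29a3, Slc35f5 and Slc9a5. From WT to KO the same rule took 45 of 103 members, 43.7% beside 31.5% of all genes, a contrast that uses the lists that chose the members. In reverse the choice of members fixes the count at 0, of 26 called in all KO lists and of 60 called in all KO+WT lists, beside 4.89% and 1.47% of all genes.

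Between the arginine mutants and the wild-type rescue, few Slc genes differed beyond the spread of the lists. In KO+5RK no member passed the limma test against KO+WT, beside 0% of all 6384 genes in either direction. At an unadjusted p under 0.05 there were 2 members with more and 4 with fewer bins in KO+5RK, among 631 of all genes, and the median difference of the members was -0.06 against -0.19 for all genes. Slc30a1 had the largest of these 4 differences (-1.97 ± 0.43, adjusted p = 0.177). No member called in all KO+WT lists was without a call in KO+5RK (0 of 60, beside 2.80% of all genes), nor the reverse (0 of 54, beside 1.68%).

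In KO+13RK, 1 of the 102 members had fewer bins than KO+WT and none had more, beside 1.22% and 0.0157% of all genes. This was Slc39a10, which encodes the zinc importer ZIP10. It had 0, 0 and 1 bins in KO+13RK, 3 in each KO+WT list, 2, 3 and 3 in KO+5RK, 2, 1 and 1 in KO and 4, 5 and 4 in WT. KO+13RK was below every other line with METTL14, and its highest list met the lowest of KO. The difference from KO+WT was -1.67 ± 0.30 (limma adjusted p = 0.0332). With lists of equal length the split was reversed, with 1 of 74 members higher in KO+13RK and none lower, beside 17 and 13 of 4013 genes. The median difference of the members was -0.29 as deposited and 0.12 at equal length.

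The Slc39a10 call held in 6 of 18 alternative settings of the limma test. It was lost with the stricter q, lists of equal length, enrichment at or above the median and the replicate block. It was also lost when KO replicate 1, 2 or 3, KO+WT replicate 1, 2 or 3, or KO+13RK replicate 1 or 2 was left out, with an adjusted p of at most 0.221 over all alternatives. The difference from KO+5RK, -1.53 ± 0.30, did not pass (adjusted p = 0.0995). In Slc39a10, 2 adjacent bins, from 46835745 to 46835944 on chromosome 1, were called in all KO+WT and WT lists and in no KO or KO+13RK list.

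At an unadjusted p under 0.05, 10 members, Slc39a10 among them, had fewer bins in KO+13RK than in KO+WT and 2 had more, beside 1010 and 94 of all 6384 genes. At equal length 6 of 74 tested members had fewer and 10 had more, beside 245 and 222 of 4013 genes. Slc35f2 was called in no KO+13RK list but in all KO+WT and KO+5RK lists (1, 2 and 1, and 2, 1 and 1 bins), with a difference of -1.19 ± 0.26 from KO+WT (adjusted p = 0.0531). Slc7a1 was lower by a difference of -1.30 ± 0.35 (adjusted p = 0.0996) and Slc30a5 by -1.25 ± 0.35 (adjusted p = 0.110). By the count of lists, Slc16a3 and Slc35f2 were lost from KO+WT to KO+13RK, 2 of 60 members or 3.33%, beside 7.19% of all genes, and none in reverse (0 of 54, beside 1.41%). Between the 2 mutants no member passed, beside 0.0313% of all genes lower and 0% higher in KO+13RK. At an unadjusted p under 0.05 there were 4 members with more bins in KO+13RK and 7 with fewer, beside 140 and 444 of all 6384 genes. At equal length there were 5 and 5 of 74 tested members, beside 164 and 192 of 4013 genes. By lists, Slc35f2 and Slc7a3, an arginine and lysine carrier, were lost from KO+5RK to KO+13RK, 2 of 54 or 3.70%, beside 4.57% of all genes, with none in reverse (0 of 54, beside 1.60%).

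The enrichment value that the authors give each bin is of unknown scale, so it was used as a rank within a list. Member bins lay slightly above the middle of the list in every line. The mean of the median percentiles was 54.1 in KO and 53.9 in WT. It was 51.8 for KO+WT, 52.6 for KO+5RK and 54.4 for KO+13RK, so the 5 lines lay within 51.8 to 54.4.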

How the data were processed

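Per the labels' protocols, libraries were stranded and came from fragmented messenger RNA pulled down with an m6A antibody. GRCm38, STAR 2.5.3a and kallisto 0.43.0 are named in the submitters' processing notes without roles. No source used here names the peak caller. The authors deposited 1 list per immunoprecipitated library, and each bin carries an enrichment score (0.310 to 5.82), a p-value and a q-value. Read depth per bin is unknown, so no counting interval is given.

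Bins were counted per gene and list. Symbols came from a name table that left 35 of 13765 genes without one. limma 3.58.1 in R 4.3.3 (trend) was fitted to log2(bins + 1) of the 12 lists without WT, over genes with at least 6 bins. Fisher's exact test compared regions. The members, classes, gene lists and tests were chosen with earlier results of these data known. Named genes are a set of nutrient carriers, the members with most bins or passing a test, and 2 per class. Other names were chosen after their values were seen. Alternatives were a q of 0.005 or less, lists of equal length (6328 bins), enrichment at or above the median (1.36), a pseudocount of 0.5, no filter beyond 1 bin, leaving out each list, a replicate block, Fisher's test per gene, unmerged bins, 6 of 12 lists per region, and members called in all 3 WT lists. Sums without Slc22a14 were added after seeing the data. Some items are not reported here by name, and they remain in the counts.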

Additional observations from a re-analysis of the deposited data

How the results depend on the processing

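Of the 25 members higher in KO+WT than in KO, 7 passed under every limma alternative (Slc7a1, Slc15a4, Slc35e2, Slc37a3, Slc38a7, Slc39a14 and Slc44a1), and 16 passed whichever list was left out. The count fell to 13 with enrichment at or above the median and to 0 with Fisher's exact test per gene, whose smallest p is 0.1. For KO+13RK against KO+WT, the count of 1 became 0 with enrichment at or above the median, with the replicate block and with Fisher's test, and 2 with log2(bins + 0.5). With lists of equal length 1 member passed between KO+5RK and KO+WT, and with the stricter q of 0.005 1 passed between KO+13RK and KO+5RK. The causes were not tested.

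Bins per gene showed no pairing by replicate number. None of 18 correlations of same-numbered lists between lines exceeded 0.1 (-0.0321 to 0.0212), and 3 of 12 lists correlated best with their own number. Bins per gene and list are few, so these correlations cannot decide whether same-numbered libraries were handled together. With the replicate block 24 members passed between KO+WT and KO.

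Leaving out 1 list gave 17 to 28 members for KO+WT against KO, 0 to 0 for KO+5RK against KO+WT, 0 to 2 for KO+13RK against KO+WT, 0 to 1 for KO+13RK against KO+5RK, and 0 to 0 regions. Member bins as a percent of KO+WT ran from 41.3 to 53.1 in KO, 86.7 to 95.5 in KO+5RK and 71.3 to 78.1 in KO+13RK. The share of bins in members ran from 1.54 to 1.58% for WT, 1.31 to 1.46% for KO, 1.51 to 1.56% for KO+WT, 1.67 to 1.77% for KO+5RK and 1.69 to 1.73% for KO+13RK.

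The region test passed 19 of 146 member regions with the stricter q (15 less often in KO) and 31 of 166 with lists of equal length (21 less often). It passed 41 of 289 unmerged (33 less often) and 32 of 126 at 6 of 12 lists, against 0 of 286 as reported. The share of all regions passing is not given for these settings, so the counts have no background beside them. Some alternatives test fewer regions, which loosens the adjustment.

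With the stricter q the share of bins in members was 1.66% for WT, 1.66% for KO+WT, 2.00% for KO+5RK and 1.95% for KO+13RK. With lists of equal length it was 1.61%, 1.64%, 1.89% and 1.83%, and member bins stood at 85.9% of KO+WT in KO, 115% in KO+5RK and 112% in KO+13RK. With enrichment at or above the median the shares were 1.70%, 1.62%, 1.83% and 1.88%. For members called in all WT lists they were 1.40%, 1.37%, 1.51% and 1.53%, and 1.20% in KO.

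Of single-gene values under the alternatives, 3783 kept their side of the threshold, 88 lost and 20 gained a call, and 5 turned. Lists of equal length turned KO+WT minus KO to -1.08 for Slc16a1 and -0.33 for Slc30a1. The stricter q turned Slc29a1 to 1.58 for KO+WT minus KO, -1.58 for KO+13RK minus KO+WT and -1.19 for KO+13RK minus KO+5RK.

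Without Slc22a14, chosen after seeing the data, the members stood at 46.9% in KO, 91.3% in KO+5RK and 74.6% in KO+13RK.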

Other observations

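Outside the WT lists alone, 40 Slc genes had a bin, and they were not among the members. Of these, 22 were called in a single list. The most often called was Slc4a1ap, a gene named for an interacting protein and not a carrier, in 8 lists, of which 3 were KO+5RK, 2 KO, 2 KO+WT and 1 KO+13RK. Slc25a20, the carnitine-acylcarnitine carrier of mitochondria, had 2, 1 and 2 bins in KO, none in KO+WT or KO+5RK, and 1 bin in 1 KO+13RK list. Slc6a7, a proline carrier, had 1 bin in every KO+5RK list, 1 in 1 KO+WT list and none in KO or KO+13RK.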
